A study of Mus musculus with 11 samples.

Results

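Transcripts of red blood cells were described in hearts of female mice that model polycystic ovary syndrome (PCOS) and of control females. The genes were taken as a list of 7: the alpha globins Hba-a1 and Hba-a2, the beta globins Hbb-bs and Hbb-bt, the haem synthesis enzyme gene Alas2, the membrane transporter gene Slc4a1 and the metabolic enzyme gene Bpgm. A row of the expression table was a member when its RefSeq accession mapped to one of these symbols in GRCm38. This gave 6 rows of 21878, and Bpgm was not analysed here. The PCOS group held 5 samples from females treated before birth with anti-Müllerian hormone (AMH), and the control group held 6 samples from females given phosphate-buffered saline (PBS) at that stage. All were labelled WT, and the labels used here gave no strain, age, litter or batch and did not say whether each sample was a separate mouse. The p-values below therefore describe sample-to-sample spread, some of which may be technical. The comparison asked which heart transcripts differ between PCOS and control females.

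Haemoglobin, the oxygen carrier of blood, is built from alpha and beta globin chains that each hold a haem group. Its messenger RNA is made in erythroid precursors, in the adult mouse mainly in bone marrow and spleen. Young red cells, the reticulocytes, still carry this RNA into the circulation after losing their nucleus. Alas2 makes the first enzyme of haem synthesis in erythroid cells, Slc4a1 makes the anion exchanger band 3 of the red cell membrane, and Bpgm makes bisphosphoglycerate, which lowers the oxygen affinity of haemoglobin. In whole heart, fewer cells of a type and less RNA per cell cannot be told apart.

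Levels were given by the authors as FPKM, in which fragments are divided by transcript length and library size, which allows genes of different length to be compared. The samples held 11866291 to 14346620 reads over the listed genes, recovered from the FPKM steps. The tissue label was checked against 8 cardiomyocyte markers, of which 7 had a row, and their summed level was 30875 to 35403 FPKM in controls and 34351 to 36923 FPKM in PCOS samples. Control replicate 6 stood apart. Its 10 liver markers summed to 1828 FPKM, with 851.7 FPKM of the albumin gene Alb, against sums of 4.67 to 13.2 FPKM in the other 10 samples. Group means, differences and ratios of the members are therefore also given without it. So are the range of list medians and the correlations of the genes most like the members. Means of single list genes and marker genes include it.

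The start regions of 4 members are shown first because these genes, on chromosomes 7, 11 and X, share short sequence motifs. Each line gives the 120 bases before the annotated start in the RefSeq table of GRCm38.p6, read 5′ to 3′ on the strand of the gene. Capitals mark the motifs ATATAA (as in a TATA box), CCAAT (as in a CCAAT box), the motif CACCC that erythroid Klf1 and its relatives recognise, and the motif GATA. Both strands were searched, so reverse complements are in capitals too. Marked motifs did not overlap in these windows.
Hba-a1 promoter (chr11:32283552-32283671, plus strand): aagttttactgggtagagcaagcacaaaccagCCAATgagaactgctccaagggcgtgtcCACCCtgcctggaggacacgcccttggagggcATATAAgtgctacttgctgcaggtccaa
Hbb-bs promoter (chr7:103827929-103828048, minus strand): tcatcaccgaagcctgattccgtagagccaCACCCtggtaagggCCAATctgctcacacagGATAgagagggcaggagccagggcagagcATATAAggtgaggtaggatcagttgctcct
Hbb-bt promoter (chr7:103813924-103814043, minus strand): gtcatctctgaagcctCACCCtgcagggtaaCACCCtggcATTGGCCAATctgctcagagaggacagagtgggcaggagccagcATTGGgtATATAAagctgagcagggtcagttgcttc
Alas2 promoter (chrX:150547297-150547416, plus strand): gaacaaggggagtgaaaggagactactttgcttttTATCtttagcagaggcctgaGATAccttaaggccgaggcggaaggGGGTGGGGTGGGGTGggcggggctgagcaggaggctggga

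ATATAA, letters of a TATA box, began 28 bases before the start in Hba-a1, 30 before it in Hbb-bs and 29 before it in Hbb-bt, and was not in the Alas2 window. CCAAT was in the 3 globin windows shown, and CACCC was in all 4, where Alas2 held 3 copies on the opposite strand. GATA, the core letters recognised by the erythroid factor Gata1, was in Hbb-bs once and in Alas2 at 2 places. Among 32851 promoter windows of the same length, 4.47% held ATATAA, 21.3% CCAAT, 31.7% CACCC and 29.5% GATA. The Hba-a2 window held the same marked letters as that of Hba-a1, and the 297 bases that could be set side by side at an offset of 3 were identical in both genes. A match is a description of the letters and shows no binding.

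The copies within each globin pair are nearly the same in sequence, which bears on how well their reads can be told apart. Stretches of 41 coding bases around the single differing base of each pair are shown, with that base in capitals.
Hba-a1 coding: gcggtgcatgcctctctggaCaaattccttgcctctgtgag
Hba-a2 coding: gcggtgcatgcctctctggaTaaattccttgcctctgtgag
Hbb-bs coding: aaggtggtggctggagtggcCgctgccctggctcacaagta
Hbb-bt coding: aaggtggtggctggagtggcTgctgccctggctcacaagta

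Counted from the A of the start codon, the 429 coding bases of Hba-a1 and Hba-a2 differed only by C381T. The 444 coding bases of Hbb-bs and Hbb-bt differed only by C417T. Of the 50-base windows in the Hba-a1 transcript of GENCODE, 67.5% also lay in Hba-a2, and 86.9% of those in Hba-a2 lay in Hba-a1. For the beta pair these shares were 65.8% of the Hbb-bs windows and 58.3% of the Hbb-bt windows. No window was shared between alpha and beta genes, which makes the summed alpha and summed beta levels safer than the split within a pair. How reads that fit both copies were assigned, or whether they were counted, is not given in the sources used here. If they were left out, the summed levels would be too low as well.

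Hba-a1 (chr11:32283672-32284486) was the more abundant alpha globin row. In controls its level ranged from 170.0 to 424.3 FPKM with a median of 232.3, and in PCOS samples 1 to 5 it was 632.5, 464.6, 498.2, 219.5 and 480.3 FPKM. Control replicates 3 and 6 were high among controls, PCOS replicate 4 was low among PCOS samples, and the groups overlapped. The means were 274.8 ± 110.1 FPKM in controls (SD, n = 6) and 459.0 ± 149.6 FPKM in PCOS samples (SD, n = 5).

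Hba-a2 (chr11:32296492-32297310), the second alpha gene, lay between 40.2 and 230.7 FPKM in controls, with a median of 111.4. In PCOS samples 1 to 5 it was 346.5, 149.5, 303.9, 103.0 and 250.9 FPKM. PCOS replicates 2 and 4 lay within the control range and the other 3 lay above it. The means were 128.4 ± 69.5 FPKM in controls (SD, n = 6) and 230.8 ± 102.6 FPKM in PCOS samples (SD, n = 5).

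Hbb-bs (chr7:103826523-103827928) was the most abundant red cell row in every sample. Control levels ran from 269.2 to 746.1 FPKM with a median of 407.8, and PCOS samples 1 to 5 held 1028, 757.3, 757.2, 439.8 and 713.2 FPKM. The samples formed a lower set of 4 controls and PCOS replicate 4, all at or below 450.7 FPKM, and a higher set from 686.1 FPKM that held the other 4 PCOS samples and control replicates 3 and 6. Group means were 477.4 ± 194.6 FPKM in controls (SD, n = 6) and 739.0 ± 208.7 FPKM in PCOS samples (SD, n = 5).

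Hbb-bt (chr7:103812524-103813923), the other adult beta gene, had 45.7 to 138.3 FPKM in controls, with a median of 76.6. PCOS samples 1 to 5 held 206.1, 134.6, 148.4, 79.0 and 158.4 FPKM. The order of samples resembled that of Hbb-bs, with controls 3 and 6 high and PCOS replicate 4 low. The means were 86.4 ± 38.1 FPKM in controls (SD, n = 6) and 145.3 ± 45.8 FPKM in PCOS samples (SD, n = 5).

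Alas2 (chrX:150547417-150570622) was far below the globins. Its level was 5.16 to 12.8 FPKM in controls, with a median of 7.65, and 16.4, 14.3, 12.6, 8.14 and 12.9 FPKM in PCOS samples 1 to 5. Control replicate 3 lay just below PCOS replicate 5 and above PCOS replicate 3, so the groups overlapped here too. The means were 8.41 ± 3.16 FPKM in controls (SD, n = 6) and 12.9 ± 3.04 FPKM in PCOS samples (SD, n = 5).

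Slc4a1 (chr11:102348820-102365281) was close to the detection limit. Control replicates 1 to 6 had 3, 2, 12, 2, 2 and 3 reads, and PCOS replicates 1 to 5 had 12, 11, 12, 2 and 5 reads. Expressed per length, this was 0.0317 to 0.186 FPKM in controls and 0.0339 to 0.195 FPKM in PCOS samples, where 3 reads in 1 sample correspond to 0.0460 to 0.0556 FPKM. Controls other than replicate 3 lay at or near that floor, and PCOS replicate 4 did so as well. It did not reach the mean of 1 FPKM required for testing. In a fit without that filter over 17237 rows, its difference was 0.09 on the log2(FPKM + 1) scale (SE 0.05, limma adjusted p = 0.811).

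**Figure D1:**
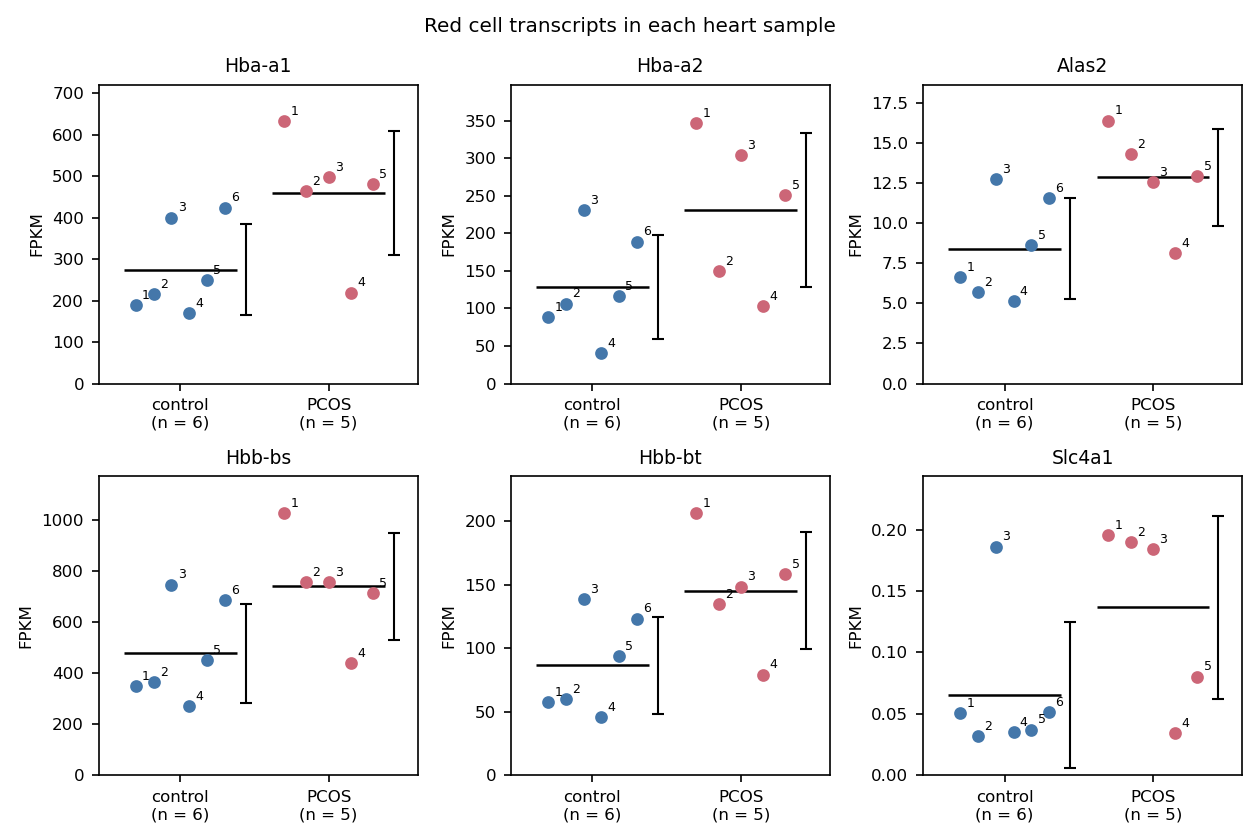
Level in FPKM (linear axis from 0) of the 6 measured red cell genes in each sample, numbered by replicate. Lines show group means and bars the SD (6 control, 5 PCOS samples). In the globin panels controls 3 and 6 lie highest in their group and PCOS replicate 4 lies lowest in its own.

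The plot of member levels by sample shows the same few samples at the top and bottom of each globin panel. Without control replicate 6 the control means were 244.9 FPKM for Hba-a1, 116.3 for Hba-a2, 435.7 for Hbb-bs, 79.0 for Hbb-bt, 7.78 for Alas2 and 0.0680 for Slc4a1 (n = 5). By mean FPKM over all samples the order was Hbb-bs, Hba-a1, Hba-a2, Hbb-bt, Alas2 and Slc4a1 in both groups. Within samples Hba-a2 exceeded Hbb-bt in 10 of 11 and was below it in control replicate 4, at 40.2 against 45.7 FPKM. The SDs of these neighbours overlap, so their order rests on within-sample values and on how reads of near-identical copies were assigned.

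The 5 testable members were all higher on average in PCOS hearts, but none passed the test across all genes. On the log2(FPKM + 1) scale the PCOS minus control difference was 0.75 for Hba-a1 (SE 0.29, 95% interval 0.13 to 1.37). It was 0.91 for Hba-a2 (SE 0.41, interval 0.02 to 1.80), 0.80 for Hbb-bt (SE 0.30, interval 0.16 to 1.43) and 0.68 for Hbb-bs (SE 0.26, interval 0.10 to 1.25). For Alas2 it was 0.59 (SE 0.22, interval 0.12 to 1.07). The limma adjusted p, corrected by the Benjamini-Hochberg method over 10891 rows, was 0.738 for each of the 5. Unadjusted p-values lay between 0.0174 and 0.0464.

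At adjusted p under 0.05, limma called 15 rows higher and 0 lower in PCOS hearts, which is 0.138% of rows called higher, and 0 of 5 members were among them. At an unadjusted p under 0.05 the higher rows were 382, or 3.51% of those tested, and this count held 5 of 5 members. Because the members vary together over the same samples, these 5 are not separate pieces of evidence. All PCOS values exceeded all control values in 0.45% of rows and in 0 of 5 members. The voom fit on recovered reads called 12 rows, with no member among them.

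The size of the difference was uncommon among all rows even though its error was wide. The median log2 difference was 0.75 over the 5 members and 0.0017 over all rows tested. A larger difference than that of the lowest member, Alas2, was found in 30 rows, or 0.275%. This count includes the globin members themselves. Without control replicate 6 the differences were 0.89 for Hba-a1, 1.06 for Hba-a2, 0.92 for Hbb-bt, 0.80 for Hbb-bs and 0.69 for Alas2, with limma adjusted p between 0.136 and 0.198. Without PCOS replicate 1, the sample with the highest haemoglobin level, the Hba-a1 difference was 0.61 and the limma adjusted p of all 5 was 0.996.

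**Figure D2:**
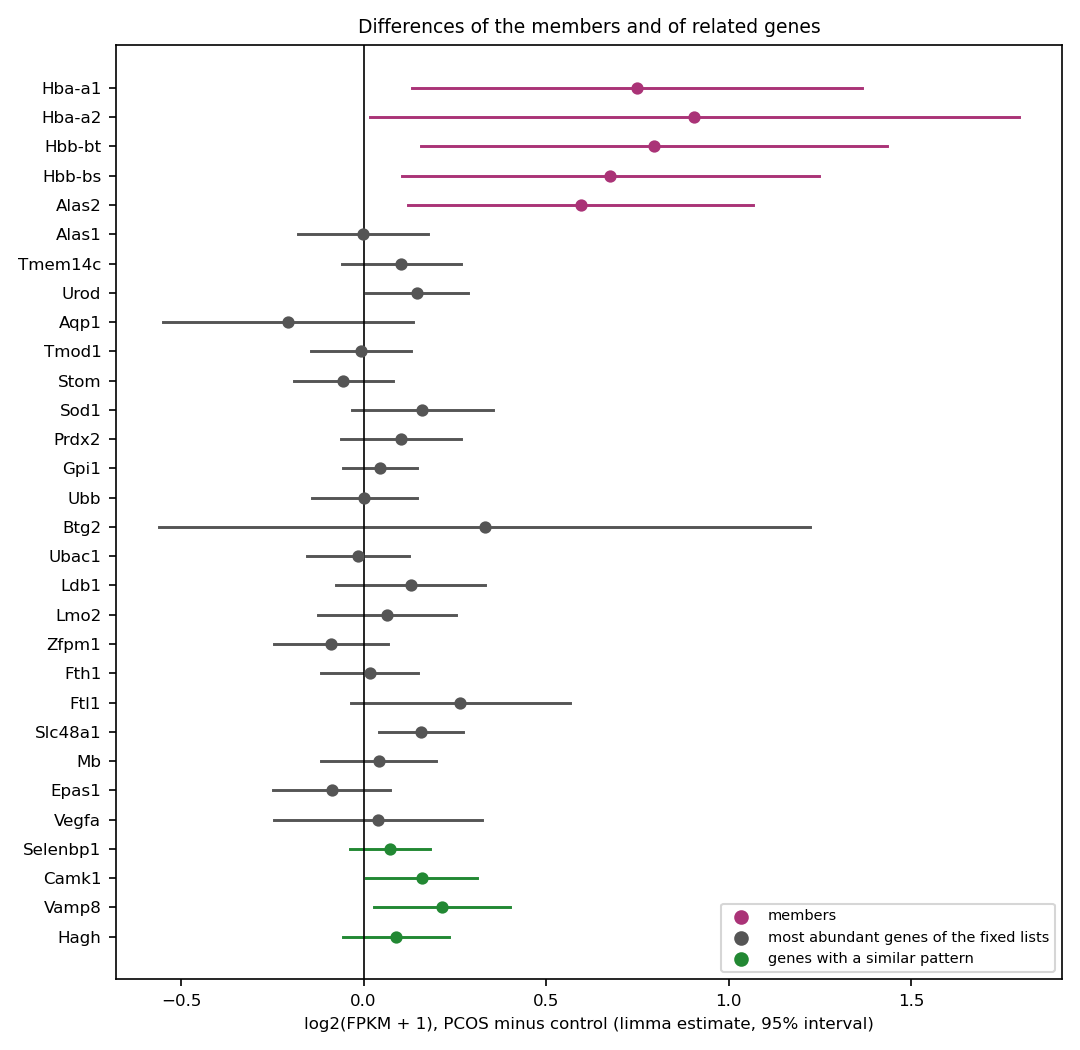
Difference in log2(FPKM + 1), PCOS minus control, as the limma estimate with its 95% interval, for the members, the most abundant genes of the red cell lists and genes like the members in pattern. The 5 members lie furthest to the right with wide intervals, and most list genes lie near 0.

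The plot of estimated differences sets the members beside genes of the same cell biology. Alas2 and the globins lay between 0.59 and 0.91, while the plotted list genes lay between -0.21 and 0.33. The globin rows together held 4023 to 18028 reads per sample, so counting error was small beside the spread between samples.

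Haemoglobin as a whole took a small share of the counted reads of the heart libraries. The 4 globin rows took 0.0414%, 0.0451%, 0.0918%, 0.0319%, 0.0552% and 0.0861% of the reads in control replicates 1 to 6. In PCOS replicates 1 to 5 the shares were 0.134%, 0.0913%, 0.103%, 0.0512% and 0.0965%. Their summed FPKM was 967 ± 409 in controls (SD, n = 6) and 1574 ± 492 in PCOS samples (SD, n = 5), a ratio of means of 1.63. Samples differed 4.21-fold from the lowest to the highest, more than the groups did. The ratio was 1.80 without control replicate 6.

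The proportions among the members varied much less than their levels. The summed beta to alpha FPKM ratio was 1.41 ± 0.0806 in controls (SD, n = 6) and 1.33 ± 0.198 in PCOS samples (SD, n = 5), and the range over all samples was 1.13 to 1.61. Group ranges overlapped, with PCOS replicates holding both the lowest and the highest ratio. Alas2 had 24.9 to 32.1 reads per 1000 haemoglobin reads in controls and 24.2 to 31.5 in PCOS samples. This value tended to be lower where the haemoglobin share was high. PCOS replicates 1, 3 and 5, with the highest shares, had 24.3, 24.2 and 26.5. Control replicates 1, 4 and 5 and PCOS replicate 4, with lower shares, had 31.8, 32.1, 31.0 and 31.5. Control replicate 2 (low share, 24.9) and PCOS replicate 2 (high share, 31.0) went the other way. The beta to alpha ratio was also lowest in PCOS replicates 1, 3 and 5, at 1.26, 1.13 and 1.19. Here too control replicate 2 (1.32) and PCOS replicate 2 (1.45) went the other way. Without control replicate 6 the control means were 1.43 ± 0.0735 for the beta to alpha ratio and 29.5 ± 3.13 for Alas2 per 1000 haemoglobin reads (SD, n = 5). These ratios were not tested.

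The split within each pair was steady apart from a few alpha globin values. Hbb-bt took 13.9% to 17.0% of the beta reads in controls and 14.9% to 18.0% in PCOS samples. Hba-a2 took 31.0% to 36.7% of the alpha reads in 5 controls but 19.2% in control replicate 4, with an exact 95% binomial interval of 17.3% to 21.3%. PCOS replicate 2 had 24.5% (interval 23.2% to 25.8%), and the other PCOS samples had 32.1% to 38.1%. Leaving out control replicate 6 changed neither end of the control range of either share. The intervals cover counting error only, and reads without molecular identifiers are not independent molecules.

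**Figure D3:**
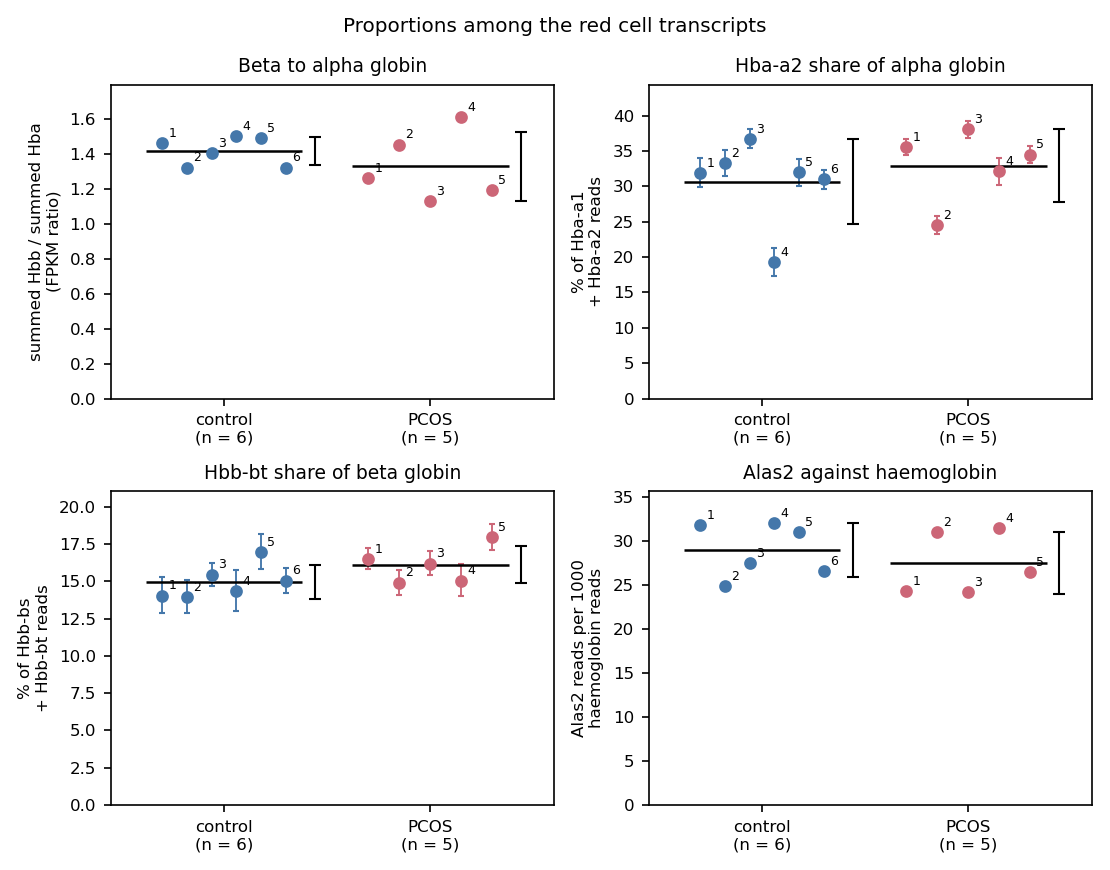
Proportions among the red cell transcripts in each sample, on linear axes from 0, with group means and SDs (6 control, 5 PCOS samples) and, in the 2 share panels, exact 95% intervals for each point. The beta to alpha ratio stays between 1.13 and 1.61, and the Hba-a2 share is lowest in control replicate 4 at 19.2%.

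The plot of proportions shows overlapping groups in all 4 panels. The point of control replicate 4 stands below every other sample in the Hba-a2 panel only.

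Genes of red cell biology outside the list of members were counted by group. Of 114 listed genes in 8 groups, 75 were tested and limma called 0 at adjusted p under 0.05. At an unadjusted p under 0.05 there were 4 higher and 3 lower, where 3.51% of all rows were higher and 3.17% lower by that rule. The voom fit also called 0. Without control replicate 6 limma again called 0, and the list medians lay between -0.058 for membrane and skeleton genes and 0.12 for reticulocyte maturation genes. The embryonic globins Hbb-y, Hbb-bh1, Hbb-bh2 and Hba-x were at 0 in all samples, and Hbq1a had at most 3 reads in a sample, so the haemoglobin reads lay on the adult genes.

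Haem synthesis genes other than Alas2 lay close to 0 in difference. Of 12 tested, 8 were on the higher and 4 on the lower side, with a median log2 difference of 0.048. Alas1, the enzyme of the same step in other tissues, had 73.2 FPKM in controls against 72.8 in PCOS samples. Tmem14c, a carrier of haem precursors, had 64.1 and 68.8 FPKM, and Urod, an enzyme of the middle of the pathway, had 55.9 and 61.9 FPKM, with log2 differences of 0.10 and 0.15. Cpox, a later enzyme, had a log2 difference of -0.29 (limma adjusted p = 0.738) and was singled out after its values were seen.

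Red cell membrane and skeleton genes had a median log2 difference of -0.049 over 15 tested, with 5 on the higher side. The water channel Aqp1 had 206 FPKM in controls against 177 in PCOS samples, the actin-capping Tmod1 at 146 and 145, and the membrane protein Stom at 52.5 and 50.4. Many of these genes are also expressed by heart muscle or vessel cells. The more erythroid-restricted Kel and Ermap had at most 1 and 3 reads in a sample, and Rhag was at 0 in all samples.

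Red cell enzymes and antioxidants comprised 12 tested genes with a median log2 difference of 0.048, 7 on the higher side. The superoxide dismutase Sod1 had 543 FPKM in controls against 604 in PCOS samples, the peroxiredoxin Prdx2 at 280 and 300, and the glycolytic Gpi1 at 256 and 264. Catalase, Cat, had a log2 difference of -0.16 (limma adjusted p = 0.738) and was named after its values were seen.

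Reticulocyte maturation and protein turnover genes had the highest list median, 0.097 over 13 tested, of which 10 were on the higher side. Ubiquitin gene Ubb was at 349 FPKM in both groups, Btg2, which restrains proliferation, at 62.1 and 72.6, and Ubac1, a ubiquitin ligase component, at 25.4 and 25.1. Fbxo7, another ligase component, had a log2 difference of 0.22 (limma adjusted p = 0.738) and was named after its values were seen. Of the erythroid transcription factors and partners, 4 were testable, with a median of 0.076. Ldb1, Lmo2 and Zfpm1 were at 23.3, 16.7 and 8.28 FPKM in controls and 25.6, 17.5 and 7.71 in PCOS samples. Klf1 reached at most 6 reads in a sample.

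Haem and iron recycling genes, 11 tested, had a median log2 difference of 0.016. The ferritin chains Fth1 and Ftl1 were at 2462 and 393 FPKM in controls and 2488 and 461 in PCOS samples. Control replicate 6 raised the control mean of Ftl1, with 592.6 FPKM against 301.2 to 393.6 in the other controls. Slc48a1, a haem transporter of the lysosome, had 27.1 to 30.0 FPKM in controls and 30.2 to 34.0 in PCOS samples. Its PCOS values all lay above its control values, as in 0.45% of all rows tested. The log2 difference of Slc48a1 was 0.16 (SE 0.05, limma adjusted p = 0.738). The plasma scavengers Hp and Hpx peaked at 53.4 and 46.5 FPKM in control replicate 6, the sample with liver transcripts. In the group of oxygen sensing genes, 8 tested, the median was 0.040. The muscle oxygen store Mb was at 12501 and 12820 FPKM, the hypoxia factor Epas1 at 96.0 and 90.2, and the angiogenic factor Vegfa at 83.6 and 86.6. Hif1a had a log2 difference of -0.26 (limma adjusted p = 0.738) and was named after its values were seen.

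Genes like the members in pattern were found by Pearson's r with the mean standardised log2(FPKM + 1) of the 5 tested members over the 11 samples, given as a description. The members themselves had r from 0.957 for Hba-a2 to 0.996 for Hbb-bs. Among other genes, Selenbp1, a selenium-binding protein gene, had r = 0.948, the kinase gene Camk1 0.941, the vesicle fusion gene Vamp8 0.935 and the glyoxalase gene Hagh 0.933. Without control replicate 6, r was 0.960 for Selenbp1, 0.942 for Camk1, 0.934 for Vamp8 and 0.931 for Hagh over 10 samples. Points of such a correlation share library, depth and the split of samples into a higher and a lower set.

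Other measures moved with haemoglobin in part. Platelet markers, 10 genes with 2 testable, summed to 12.7 to 27.5 FPKM in controls and 18.1 to 24.9 in PCOS samples, highest in control replicate 6 and lowest in controls 2 and 4. Most of this platelet sum was Pf4, with a mean of 17.0 FPKM over all samples, against 1.09 FPKM for Ppbp, the next highest. The 6 measured macrophage and monocyte markers summed to 129.0 to 247.2 FPKM in controls and 275.0 to 383.6 in PCOS samples, with no overlap. Of these, limma called 1, Cd68, at 4.78 ± 1.66 FPKM in controls (SD, n = 6) and 17.6 ± 2.22 in PCOS samples (SD, n = 5; adjusted p = 0.000298). Lyz2 was the largest part of the sum, with a mean of 126.6 FPKM over all samples. Cd68 and Lyz2 did not overlap between groups, as in 0.45% of all rows tested. C1qa and C1qc did overlap, and Cd14 had a log2 difference of -0.16. Over the 11 samples, r with the mean of the members was 0.638 for Cd68, 0.663 for Lyz2, 0.700 for C1qa and 0.611 for C1qc. For the platelet genes Pf4 and Ppbp it was 0.783 and 0.863. Within the PCOS group, replicates 4 and 1, with the lowest and the highest haemoglobin share, had nearly the same macrophage sum, 275.0 and 276.4 FPKM.

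Markers of other blood cells did not separate the groups. Neutrophil markers summed to 3.0 to 16.9 FPKM in controls and 3.30 to 9.53 in PCOS samples, with Ly6g at 0 throughout. B cell markers summed to 2.68 to 6.44 and 3.32 to 7.08 FPKM, and T and NK cell markers to 2.54 to 5.79 and 2.57 to 7.31 FPKM. Erythroid precursor markers summed to only 1.38 to 3.75 FPKM in controls and 2.18 to 3.17 in PCOS samples. Endothelial markers summed to 198 to 354 and 262 to 312 FPKM, and lung markers to at most 3.04 FPKM.

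Globin transcripts are short, and other short rows shared some of their pattern. The globin rows had implied lengths of 559.1 to 639.1 bases. Over 176 other rows of 500 to 700 bases, a window set around them, the median log2 difference was 0.108. The per-sample median deviation of these rows was 0.28 in control replicate 6 and 0.19 in PCOS replicate 1, both high in haemoglobin, and -0.20 in control replicate 1, which was low. Control replicate 3 was high in haemoglobin with a deviation of 0.0018. The part of transcript length, platelet markers and macrophage markers in the haemoglobin difference was not tested.

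**Figure D4:**
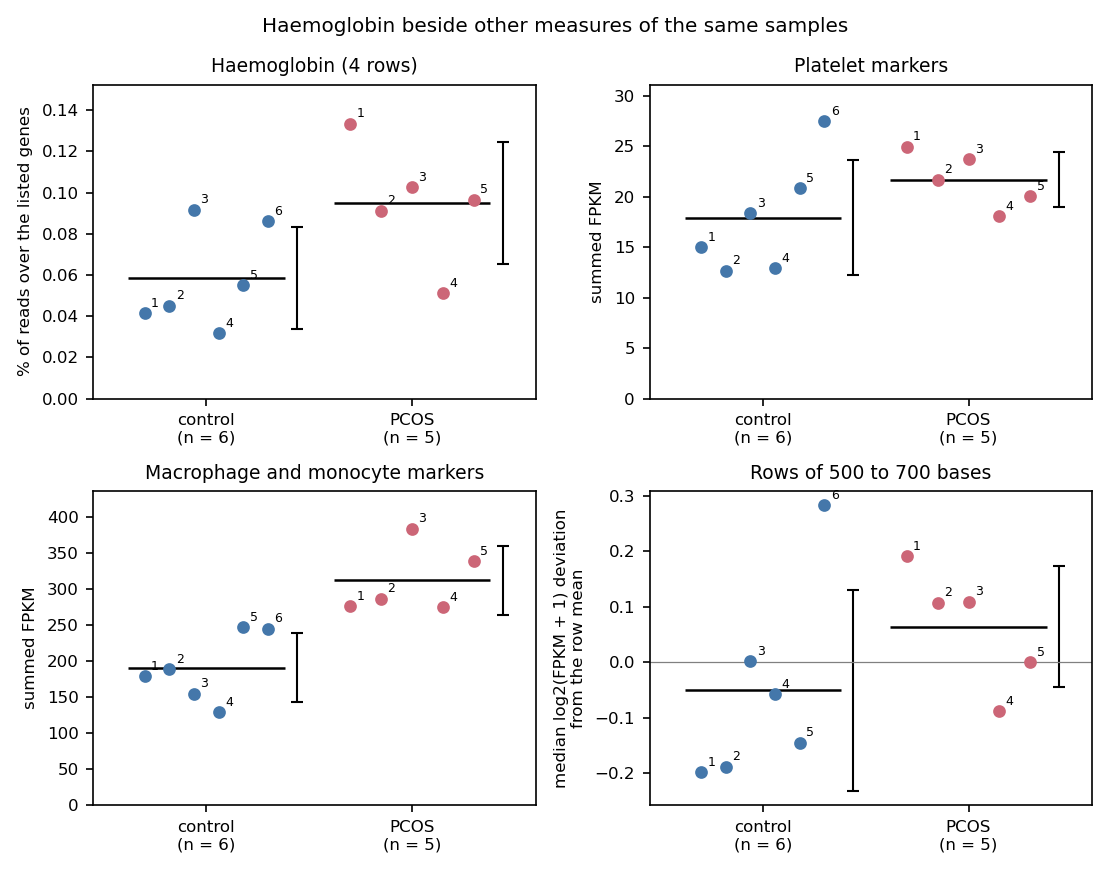
Haemoglobin share of reads (percent), summed platelet and macrophage markers (FPKM) and the median log2(FPKM + 1) deviation of other rows of 500 to 700 bases, in each sample with group means and SDs (6 control, 5 PCOS samples). Macrophage marker sums do not overlap between groups, while the other 3 measures do.

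The plot of haemoglobin beside other measures lets single samples be followed by their numbers. Control replicate 3 had a haemoglobin share of 0.0918% with a macrophage sum of 154.8 FPKM, below PCOS samples on that measure.

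**Figure D5:**
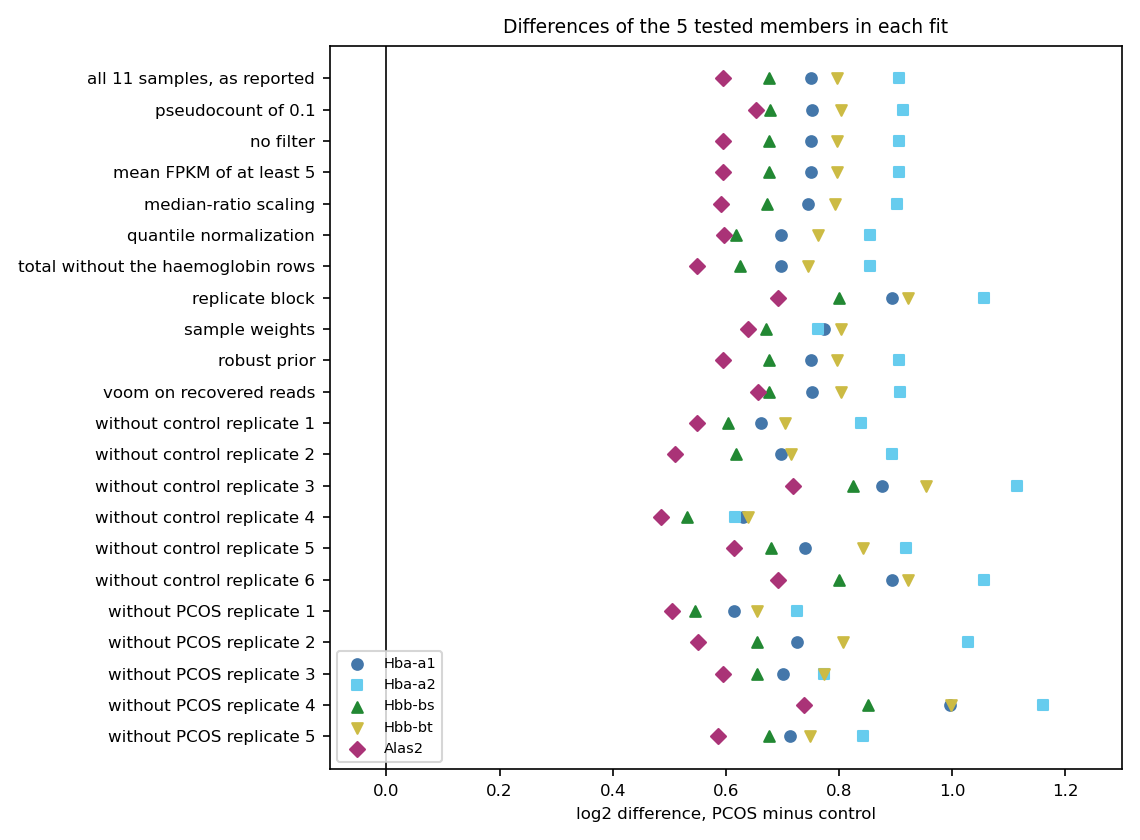
Log2 difference (PCOS minus control) of the 5 tested members in the reported fit and 21 alternatives, with 0 marked by a line. All points lie above 0, from 0.49 for Alas2 to 1.16 for Hba-a2.

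In the plot of differences by fit, the 5 members stayed above 0 in each alternative tried, and none passed adjusted p 0.05 in any. Leaving out control replicate 4 gave the lowest value for Alas2, Hbb-bs, Hbb-bt and Hba-a2, and leaving out PCOS replicate 4 gave the highest value for all 5.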

How the data were processed

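The members and gene lists were chosen with earlier results of these data known. Per the labels' protocols, heart RNA was isolated with mirVana reagents and sequenced as TruSeq stranded mRNA libraries. Build mm10, HISAT2 2.2.1, HTSeq 0.13.5, DESeq2 1.18.1, Trimmomatic 0.38, FastQC 0.11.9 and R 3.4.1 are named in the submitters' processing notes. Their settings are not given in the sources used here. The authors deposited FPKM per RefSeq accession, which were used as they stand. Symbols came from RefSeq's GRCm38.p6 table, with 87.2% of rows matched. Where a symbol had several rows, the most abundant was used.

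Whole reads were recovered from the FPKM steps in 15939 of 15939 rows above 0 in at least 3 samples, within 0.02 of a whole number. Groups were compared on log2(FPKM + 1) with lmFit and trended eBayes of limma 3.58.1 (R 4.3.3), in rows with a mean of at least 1 FPKM, with Benjamini-Hochberg adjustment. The added 1 understates changes of low genes. The fit was tested on simulated data with independent rows and larger changes than those of the members. That test does not show how well differences of the members' size are found. Because the unit is FPKM, limma's voom on recovered reads was an alternative only. Other alternatives changed the pseudocount, filter, scaling, block, weights, prior or samples. Named genes were the members, the 3 most abundant tested genes of each list, any called list gene and the 5 genes most like the members. Some genes that this rule names are not reported here.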

Additional observations from a re-analysis of the deposited data

Results flagged for a closer look

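The highest or lowest sample of a group was checked for a gap to the others in 96 groups of values, and 6 stood out, where chance gives about 1 in 20. Slc4a1 was at 0.186 FPKM in control replicate 3, against 0.0317 to 0.0513 in the other controls, and both ends rest on 12 reads or fewer. The Hba-a2 share of alpha globin reads was 19.2% in control replicate 4, against 31.0% to 36.7% in the other controls. Gpi1 was at 278.9 FPKM in PCOS replicate 3, against 258.4 to 261.2 in the other PCOS samples. The ferritin gene Ftl1 was at 592.6 FPKM in control replicate 6, against 301.2 to 393.6 in the other controls. Liver markers summed to 1828 FPKM in that same sample, against 5.02 to 13.2 in the other controls. B cell markers summed to 7.08 FPKM in PCOS replicate 2, against 3.32 to 4.37 in the other PCOS samples.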

How the results depend on the processing

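The 5 members kept their direction and stayed uncalled by limma in 21 alternatives each. The lowest adjusted p came with the replicate block, from 0.0648 for Hba-a2 to 0.114 for Alas2. The labels do not say whether replicate numbers pair the samples. Same-number deviations correlated between -0.12 and 0.25, and no PCOS sample correlated best with its own number. The best matches reached only 0.14 to 0.28, too low and too close to the same-number values to decide about pairing. The block also leaves control replicate 6 without a partner. Rows called were 15 as reported, 25 with the replicate block (23 higher, 2 lower), 25 with sample weights, 5 at a mean of at least 5 FPKM and 10 to 32 with 1 sample left out, the 32 without control replicate 6. The block called 1 list gene, Ftl1, at 0.39 (adjusted p = 0.0458). Uncalled list genes near 0 changed sign in places, and the cause was not tested. The log2 difference of Ubb was -0.0022 with median-ratio scaling, -0.042 with quantile normalization and -0.050 with totals without haemoglobin. With quantile normalization and totals without haemoglobin, Gpi1 was at -0.013 and -0.0063 and Fth1 at -0.057 and -0.036. Totals without haemoglobin gave -0.011 for Mb and -0.013 for Vegfa, the block gave -0.010 for Vegfa and sample weights 0.036 for Alas1. With 1 sample left out, the ranges were -0.060 to 0.042 for Alas1, -0.045 to 0.018 for Tmod1, -0.031 to 0.034 for Ubb, -0.046 to 0.011 for Ubac1, -0.0097 to 0.049 for Fth1 and -0.024 to 0.17 for Vegfa. Depth limits Slc4a1, with at most 12 reads in a sample.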

Other observations

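The pattern opposite to haemoglobin was also present. Over the 11 samples, 26 rows had r above 0.9 with the mean of the members and 22 rows had r below -0.9, given as a description. The 26 rows include the tested members themselves, which are part of that mean. The 26 and the 22 are therefore not like counts.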
